A study of Mus musculus with 18 samples.

Results

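Inhibitory receptors of T cells were examined as 8 genes in donor T cells of the mouse spleen on day 7 after haematopoietic stem cell transplantation. The genes were Pdcd1 (which encodes PD-1), Lag3, Havcr2 (TIM-3), Tigit, Ctla4, Entpd1 (CD39), Cd160 and Btla. They were taken as the rows of the deposited gene table that carry these symbols. Of 46073 rows, 9 did, and 8 of these, 1 for each gene, passed the filter on low counts. The remaining row repeats the symbol Ctla4 under another identifier, was at 0 in all 12 libraries and entered no test.

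The series compared T cells lacking Wapl (KO), a protein that releases the cohesin ring from chromosomes, with T cells of wild-type C57BL/6 donors (WT). The 12 libraries formed 4 groups of 3, named here allogeneic KO, allogeneic WT, syngeneic KO and syngeneic WT. WT donors and recipients were female mice of 8 to 12 weeks. Allogeneic recipients, of the strain CByJ.SJL(B6)-Ptprca/J by the transplant protocol and BALB/c by the sample field, got 8 Gy of irradiation, whereas syngeneic recipients, B6.SJL-Ptprca Pepcb/BoyJ, got 9.5 Gy. Allogeneic recipients got 1000000 and syngeneic recipients 8500000 donor T cells, and all got 5000000 marrow cells depleted of T cells. Live cells positive for CD3, a part of the T cell receptor complex, and for CD45.2, carried by the donors, were sorted from spleen, and each library pooled 2 to 4 mice. For the syngeneic KO libraries the transplant type reads syngeneic while the cell type field names the allogeneic recipient strain. They were grouped by transplant type, and which strain received these cells was not tested. The labels give neither the Cre line, the deleted exons nor the sex of the KO donors. Dose of irradiation, number of T cells and recipient strain all differ between allogeneic and syngeneic transplantation and cannot be told apart here.

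Inhibitory receptors are surface proteins that dampen T cell activation when they meet their ligands on other cells. Some, such as BTLA, are already present on resting T cells, while PD-1, LAG-3, TIM-3, TIGIT and CTLA-4 are induced by antigen recognition and stay high when antigen persists. CD39 is no receptor in the strict sense but an ectoenzyme that breaks down extracellular ATP, the first step towards adenosine, which also dampens T cells. In allogeneic transplantation, donor T cells recognise recipient tissue as foreign, the setting of graft-versus-host disease.

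Counts per library totalled 45965659 to 89007100. Levels are CPM, the count of a gene scaled to the library's total, on library sizes adjusted by TMM, edgeR's correction for RNA composition. Wapl itself, listed under its older symbol Wapal, stood at 124 to 151 CPM in allogeneic KO, 156 to 169 in allogeneic WT, 127 to 139 in syngeneic KO and 170.1 to 211 in syngeneic WT libraries. Which exons the KO lacks is not given, so the count of the gene as a whole does not check the deletion. Ribosomal RNA took 16.1 to 18.03% of counts in allogeneic KO, 8.27 to 17.8% in allogeneic WT, 23.98 to 32.1% in syngeneic KO and 20.2 to 23.1% in syngeneic WT. Syngeneic KO replicate 1 had the highest share and the lowest TMM factor, 0.773. The summed CPM of 4 Y-linked genes (Ddx3y, Eif2s3y, Kdm5d and Uty) was 31.4 to 138 in allogeneic KO and 0.733 to 1.04 in allogeneic WT, and 32.3 to 116 in syngeneic KO and 0.934 to 1.75 in syngeneic WT. Donor sex and genotype therefore cannot be told apart in any comparison of KO with WT.

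To show the regulatory sequence of genes that changed together and of a gene that did not, the 250 bases before the RefSeq transcription start (GRCm38.p6) are printed for Pdcd1, Havcr2 and Tigit, which rose in allogeneic over syngeneic libraries of both genotypes and in syngeneic KO over WT, and for Btla, which passed no test. RefSeq windows were at hand for 7 of the 8 genes, Lag3 being the exception, and gave 9 windows. Sequences run 5′ to 3′ on the strand of the gene, and capitals mark every match, on either strand, to one of 5 motifs of T cell transcription factors. The motifs were GGAAA (NFAT), TGANTCA (AP-1), GTGTGA (T-box factors), TGTGGT (RUNX) and AAAGGTCA (NR4A). The windows are chr1:94052554-94052803, minus strand for Pdcd1, chr11:46454681-46454930, plus strand for Havcr2, chr16:43664185-43664434, minus strand for Tigit and chr16:45224087-45224336, plus strand for Btla.
Pdcd1: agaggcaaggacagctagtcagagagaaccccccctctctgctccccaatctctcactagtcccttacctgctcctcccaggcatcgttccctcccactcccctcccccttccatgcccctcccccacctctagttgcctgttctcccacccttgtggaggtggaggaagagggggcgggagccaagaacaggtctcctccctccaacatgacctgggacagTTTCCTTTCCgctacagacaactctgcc
Havcr2: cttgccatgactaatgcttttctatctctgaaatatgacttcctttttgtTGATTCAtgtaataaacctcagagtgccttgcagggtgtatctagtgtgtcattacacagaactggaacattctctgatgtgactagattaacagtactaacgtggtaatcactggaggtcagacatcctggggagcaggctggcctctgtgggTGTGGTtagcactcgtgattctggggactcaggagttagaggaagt
Tigit: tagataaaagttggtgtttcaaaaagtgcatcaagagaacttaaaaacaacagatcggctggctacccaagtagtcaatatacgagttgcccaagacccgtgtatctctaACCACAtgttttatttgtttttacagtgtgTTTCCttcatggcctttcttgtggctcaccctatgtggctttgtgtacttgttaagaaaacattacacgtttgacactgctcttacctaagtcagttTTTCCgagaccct
Btla: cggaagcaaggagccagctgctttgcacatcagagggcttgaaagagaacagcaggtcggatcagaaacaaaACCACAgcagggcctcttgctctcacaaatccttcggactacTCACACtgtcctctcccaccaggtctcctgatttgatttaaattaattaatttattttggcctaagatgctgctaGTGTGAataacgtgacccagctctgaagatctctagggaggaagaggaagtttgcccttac
In the Pdcd1 window the capitals are a pair of adjacent NFAT matches that start 28 and 23 bases before the transcription start. The Havcr2 window holds an AP-1 match 200 bases and a RUNX match 46 bases before the start. The Tigit window holds a RUNX match at 140 bases and NFAT matches at 110 and 13 bases before the start. In the Btla window the matches are RUNX at 178 bases and T-box at 136 and 61 bases. No pair of marked matches overlaps. Over the 9 windows, NFAT was matched in 5, RUNX in 5, T-box in 3, AP-1 in 1 and NR4A in 0. Of all 32851 RefSeq windows of the same length, 55.6% held the NFAT letters, 14.0% RUNX, 12.3% T-box, 6.75% AP-1 and 1.34% NR4A. These are matches of short letter strings and not measured binding.

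Pdcd1 (ENSMUSG00000026285, chromosome 1, 94038305 to 94052553, minus strand, GRCm38) encodes PD-1, the receptor of PD-L1 and PD-L2. It stood at 396, 592 and 296 CPM in allogeneic KO, 321, 287 and 328 in allogeneic WT, 47.4, 37.3 and 30.5 in syngeneic KO and 14.8, 13.6 and 14.5 in syngeneic WT libraries. Every allogeneic library lay above every syngeneic one, and every syngeneic KO library above every syngeneic WT one. Allogeneic KO replicate 2 was the highest of all, while the lowest allogeneic KO library fell inside the allogeneic WT range.

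Lag3 (ENSMUSG00000030124, chromosome 6, 124904361 to 124911705, minus strand) encodes a receptor of MHC class II that is built like the coreceptor CD4. Its levels were 238, 233 and 189.9 CPM in allogeneic KO, 196, 186 and 198 in allogeneic WT, 26.2, 24.7 and 22.2 in syngeneic KO and 8.25, 7.50 and 8.36 in syngeneic WT. The groups were ordered as for Pdcd1, with tighter replicates. Havcr2 (ENSMUSG00000020399, chromosome 11, 46454935 to 46481255, plus strand) encodes TIM-3, which binds galectin-9 and other ligands. It was measured at 147, 159 and 128 CPM in allogeneic KO, 103, 113 and 124 in allogeneic WT, 14.4, 17.98 and 8.73 in syngeneic KO and 3.35, 3.37 and 5.52 in syngeneic WT. No pair of neighbouring groups overlapped, and the syngeneic KO libraries spread more widely relative to their mean than those of Pdcd1 and Lag3. Tigit (ENSMUSG00000071552, chromosome 16, 43648867 to 43664146, minus strand) encodes a receptor that competes with the costimulatory CD226 for CD155. Tigit levels were 173, 189.5 and 144 CPM in allogeneic KO, 187, 183 and 162 in allogeneic WT, 22.2, 18.9 and 14.8 in syngeneic KO and 9.01, 10.3 and 9.05 in syngeneic WT. Allogeneic KO and WT overlapped, and syngeneic KO stood above syngeneic WT in all libraries.

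Ctla4 (ENSMUSG00000026011, chromosome 1, 60887000 to 60915832, plus strand) encodes CTLA-4, which competes with CD28 for CD80 and CD86. It was at 63.3, 86.7 and 53.6 CPM in allogeneic KO, 69.4, 69.8 and 61.01 in allogeneic WT, 19.2, 12.7 and 8.51 in syngeneic KO and 10.8, 17.7 and 11.3 in syngeneic WT. Allogeneic libraries were above syngeneic ones, and KO and WT overlapped in both settings. Entpd1 (ENSMUSG00000048120, chromosome 19, 40612366 to 40741602, plus strand), the gene of CD39, had 77.3, 86.7 and 61.5 CPM in allogeneic KO, 87.5, 80.03 and 62.2 in allogeneic WT, 17.4, 15.02 and 13.5 in syngeneic KO and 8.22, 11.5 and 12.3 in syngeneic WT. Here too allogeneic libraries were the higher ones, and the syngeneic KO libraries lay just above the syngeneic WT ones.

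Cd160 (ENSMUSG00000038304, chromosome 3, 96798763 to 96829351, minus strand) and Btla (ENSMUSG00000052013, chromosome 16, 45224315 to 45257670, plus strand) encode receptors that share the ligand HVEM, the product of Tnfrsf14. Cd160 had 59.1, 113 and 52.95 CPM in allogeneic KO, 65.9, 54.5 and 58.5 in allogeneic WT, 75.1, 48.2 and 38.9 in syngeneic KO and 49.9, 39.3 and 47.6 in syngeneic WT. Allogeneic WT lay above syngeneic WT, while KO and WT overlapped in both settings and allogeneic KO overlapped syngeneic KO, with allogeneic KO replicate 2 and syngeneic KO replicate 1 as high libraries of their groups. Btla was measured at 40.6, 46.5 and 42.9 CPM in allogeneic KO, 47.6, 43.8 and 52.9 in allogeneic WT, 43.4, 50.4 and 44.5 in syngeneic KO and 50.01, 47.3 and 42.1 in syngeneic WT. All 4 groups of Btla overlapped. Exons of Cd160 share 68 bases with Pdzk1 on the opposite strand, which had a mean count of 23.2. Whether counting used strand is not given in the sources used here.

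**Figure D1:**
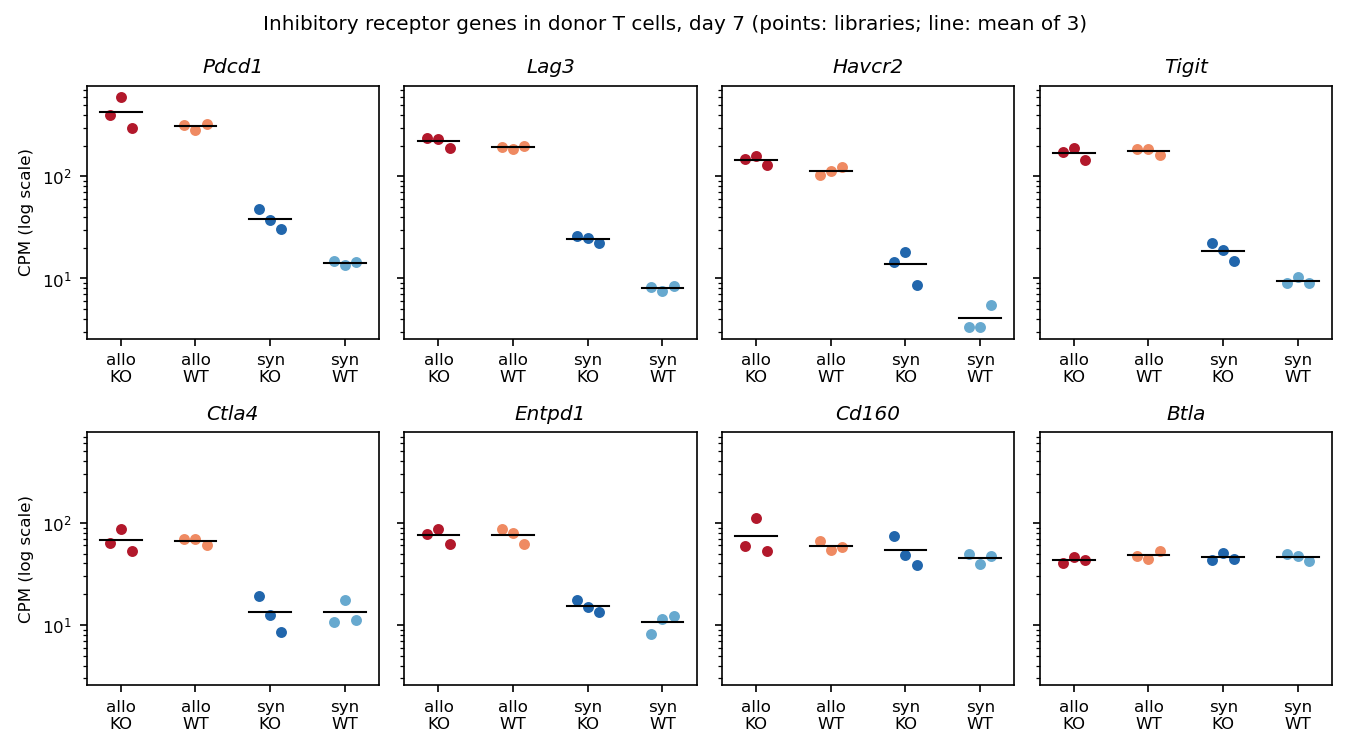
CPM of each gene in every library on a log axis, with libraries as points and the mean of 3 as a line. Pdcd1, Lag3, Havcr2 and Tigit step down from the allogeneic groups to syngeneic KO and again to syngeneic WT, Ctla4 and Entpd1 separate allogeneic from syngeneic libraries, and Cd160 and Btla stay between 38.9 and 113 CPM in every library.

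To compare the genes with each other, CPM was divided by the length of the exons in kb. In allogeneic KO the order was Pdcd1 at 222 ± 77.95 CPM per kb, Tigit at 184 ± 25.3, Lag3 at 104 ± 12.5, Havcr2 at 53.3 ± 5.68, Ctla4 at 29.1 ± 7.30, Cd160 at 28.3 ± 12.4, Entpd1 at 13.5 ± 2.28 and Btla at 12.8 ± 0.880 (SD, n = 3). The ranges of Pdcd1 and Tigit, of Ctla4 and Cd160, and of Entpd1 and Btla overlapped. In allogeneic WT, Tigit at 193 ± 14.6 CPM per kb stood above Pdcd1 at 162 ± 11.2, followed by Lag3 at 91.6 ± 3.00, Havcr2 at 41.6 ± 3.96, Ctla4 at 28.6 ± 2.12 and Cd160 at 22.6 ± 2.18. Btla and Entpd1 came last, at 14.2 ± 1.34 and 13.7 ± 2.33, and theirs was the overlap among neighbours in that group.

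Syngeneic libraries had another order. In syngeneic KO the ranges of Cd160 (20.5 ± 7.12 CPM per kb), Tigit (20.3 ± 4.04) and Pdcd1 (19.9 ± 4.398) overlapped at the top. Btla (13.6 ± 1.11) and Lag3 (11.5 ± 0.966) came next, then Ctla4 (5.78 ± 2.32) overlapping Havcr2 (5.04 ± 1.71), and Entpd1 was lowest at 2.74 ± 0.351. In syngeneic WT, Cd160 (17.3 ± 2.12 CPM per kb) and Btla (13.7 ± 1.18) led, above Tigit (10.3 ± 0.823). Pdcd1 (7.40 ± 0.325) overlapped Ctla4 (5.69 ± 1.66), Lag3 followed at 3.81 ± 0.223, and Entpd1 (1.92 ± 0.392) overlapped Havcr2 (1.499 ± 0.459). Havcr2 was thus at rank 4 of 8 in both allogeneic groups and last in syngeneic WT.

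**Figure D2:**
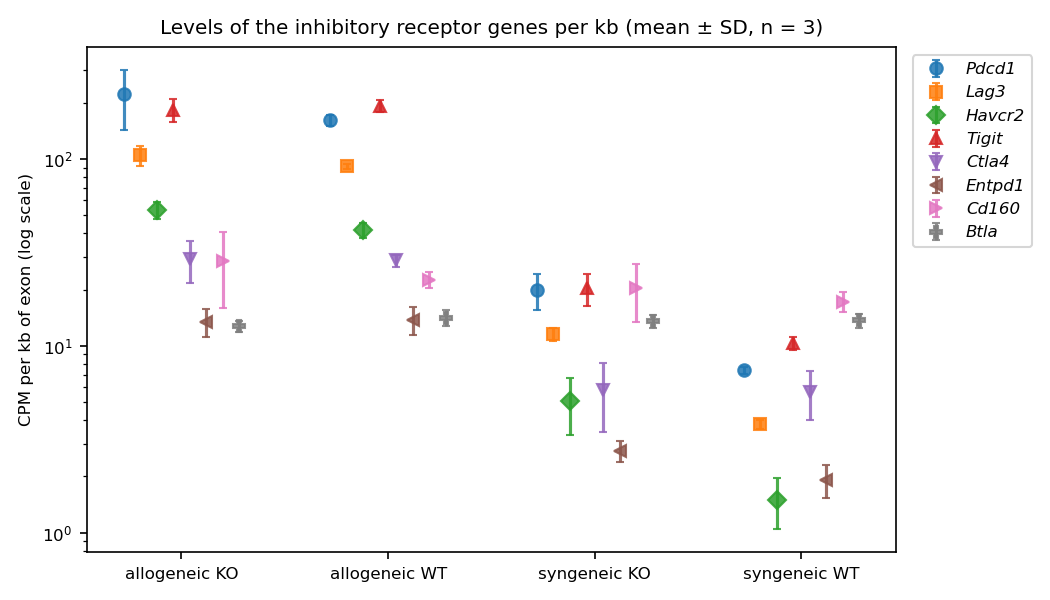
Mean level of each gene per kb of exon in the 4 groups, on a log axis, with bars of 1 SD over 3 libraries. Tigit and Pdcd1 top both allogeneic groups and Cd160 tops both syngeneic groups, while Btla stays between 12.8 and 14.2 CPM per kb in all 4.

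Between allogeneic and syngeneic transplantation, 6 of the 8 genes rose with either genotype, and Cd160 and Btla passed no test. A gene was called where edgeR's quasi-likelihood test gave a p under 0.05 after Benjamini-Hochberg adjustment across the 18447 tested genes. Among all tested genes, 13.2% were called higher in allogeneic KO than in syngeneic KO (11.2% lower, 24.4% in either direction), and 16.4% higher in allogeneic WT than in syngeneic WT (15.9% lower, 32.3% in either direction). The median log2 fold change of the 8 genes was 2.75 in KO, against −0.021 over all tested genes, and 3.53 in WT, against −0.028. In these bulk libraries, a change in the share of cells of a type and a change in RNA per cell cannot be told apart.

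Havcr2 averaged 145 ± 15.5 CPM in allogeneic KO and 13.7 ± 4.67 CPM in syngeneic KO (SD, n = 3 each), a log2 fold change of 3.40 ± 0.26 (SE, edgeR adjusted p = 1.88e-06). In WT its means were 113 ± 10.8 CPM in allogeneic and 4.08 ± 1.25 CPM in syngeneic libraries, a log2 fold change of 4.80 ± 0.28 (adjusted p = 1.74e-07), the largest of the 8 genes in WT. Lag3 averaged 220.3 ± 26.4 CPM in allogeneic KO and 24.3 ± 2.04 CPM in syngeneic KO and rose by 3.18 ± 0.12 on the log2 scale (adjusted p = 9.91e-09). Its rise in WT was 4.59 ± 0.13 (adjusted p = 6.98e-10), with means of 193 ± 6.33 CPM in allogeneic and 8.04 ± 0.471 CPM in syngeneic libraries. Pdcd1, the largest of the 8 in KO, averaged 428 ± 150.5 CPM in allogeneic KO against 38.4 ± 8.49 in syngeneic KO (log2 fold change 3.48 ± 0.24, adjusted p = 6.45e-07). Its means in WT were 312 ± 21.7 CPM in allogeneic and 14.3 ± 0.627 CPM in syngeneic libraries (log2 fold change 4.45 ± 0.25, adjusted p = 1.03e-07). The rise of Tigit was 3.18 ± 0.16 with KO cells (adjusted p = 7.84e-08) and 4.23 ± 0.17 with WT cells (adjusted p = 9.51e-09). These 4 genes stood at ranks 169 to 207 of 18447 by size of the rise in KO and at ranks 72 to 109 in WT.

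Entpd1 and Ctla4 rose less. The log2 fold change of Entpd1 was 2.30 ± 0.19 with KO cells (adjusted p = 3.00e-06) and 2.84 ± 0.19 with WT cells (adjusted p = 4.94e-07). That of Ctla4 was 2.33 ± 0.29 with KO cells (adjusted p = 9.72e-05) and 2.33 ± 0.29 with WT cells (adjusted p = 7.08e-05). For Cd160 the log2 difference was 0.47 ± 0.28 in KO, with a 95% interval of −0.14 to 1.08 (adjusted p = 0.245), and 0.39 ± 0.28 in WT, with an interval of −0.23 to 1.00 (adjusted p = 0.315). Without syngeneic KO replicate 1 the Cd160 value in KO was 0.83 and passed the test (adjusted p = 0.0412), and with the compared groups alone the value in WT passed too (adjusted p = 0.0188). Btla had the narrowest intervals, −0.33 to 0.16 around −0.088 in KO (adjusted p = 0.603) and −0.20 to 0.29 around 0.049 in WT (adjusted p = 0.768). Groups did not overlap for 6 genes in KO, where 17.0% of all tested genes were separated in this direction and 16.6% in the other, and for 7 genes in WT, where 28.2% were in this direction and 27.5% in the other.

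Loss of Wapl after syngeneic transplantation went with higher levels of 4 of the 8 genes, Lag3, Pdcd1, Havcr2 and Tigit, while 0 of the 8 fell. The recipient strain of the syngeneic KO libraries is in doubt from their labels, and its part in these values was not tested. Of all tested genes, 0.743% were called higher and 2.63% lower in syngeneic KO than in syngeneic WT. The replicate numbers were taken to pair these libraries, an assumption that the labels do not state. The 4 calls are from the fit over all 12 libraries without a block. With the number as a block in a fit of these groups alone, 3 of the 8 genes were called higher, Havcr2 not among them. That fit called 382 genes higher and 905 lower, 1287 in either direction. The fit without a block called 622 (3.37% of all tested genes). The fit with the block in these groups alone did not test the same set of genes, and the size of its set is not given here. Its calls therefore have no share to be read against. Without a block, the median log2 fold change of the 8 genes was 0.75, against 0.058 over all tested genes. Lag3 averaged 24.3 ± 2.04 CPM in syngeneic KO and 8.04 ± 0.471 CPM in syngeneic WT (SD, n = 3 each), with a log2 fold change of 1.60 ± 0.12 (edgeR adjusted p = 4.08e-05). Pdcd1 averaged 38.4 ± 8.49 CPM in syngeneic KO and 14.3 ± 0.627 CPM in syngeneic WT, a log2 fold change of 1.43 ± 0.22 (adjusted p = 0.00319). Havcr2 had the largest value, 1.75 ± 0.25 (adjusted p = 0.00210), and its call was lost with the replicate number as a block in the fit of these groups alone (adjusted p = 0.113). For Tigit the log2 fold change was 0.98 ± 0.15 (adjusted p = 0.00319), with means of 18.7 ± 3.71 CPM in syngeneic KO and 9.46 ± 0.756 CPM in syngeneic WT. These 4 genes stood at ranks 145 to 518 of 18447 by size of the rise.

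Entpd1 leaned the same way without passing the test. It averaged 15.3 ± 1.96 CPM in syngeneic KO and 10.7 ± 2.19 CPM in syngeneic WT, and its log2 difference of 0.52 ± 0.19 had a 95% interval of 0.12 to 0.92 and an adjusted p of 0.209. Groups did not overlap for 5 of the 8 genes, Entpd1 included, where 13.2% of all tested genes were separated in this direction and 10.1% in the other. Ctla4 differed by 0.023 ± 0.28 (interval −0.58 to 0.63, adjusted p = 0.979), and the sign of its value turned in several alternative fits. Cd160 differed by 0.25 ± 0.28 (interval −0.37 to 0.86, adjusted p = 0.716) and Btla by −0.011 ± 0.11 (interval −0.26 to 0.23, adjusted p = 0.974).

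Against the allogeneic levels, the rises in syngeneic KO were small. The syngeneic KO mean of Lag3 was 12.6% of the allogeneic WT mean, that of Pdcd1 12.3%, that of Havcr2 12.1% and that of Tigit 10.5%. In syngeneic WT these shares were 4.16% for Lag3, 4.58% for Pdcd1, 3.60% for Havcr2 and 5.33% for Tigit. For Ctla4 the share was 20.2% in syngeneic KO and 19.9% in syngeneic WT, and for Entpd1 19.99% in syngeneic KO and 14.0% in syngeneic WT. Cd160 reached 90.7% in syngeneic KO and 76.5% in syngeneic WT, and Btla 95.9% in syngeneic KO and 96.7% in syngeneic WT. Markers of red cell precursors moved with the same comparison. All 8 erythroid genes were called lower, and their summed CPM was 19.8 to 83.4 in syngeneic KO and 2145 to 4878 in syngeneic WT. Of 10 myeloid genes 5 were called lower. The list summed to 16.0 to 55.8 CPM in syngeneic KO and 59.3 to 189 CPM in syngeneic WT, with 5 genes under 1 CPM in syngeneic KO. Most of the fall was Lyz2, which averaged 7.44 CPM in syngeneic KO and 97.4 CPM in syngeneic WT. Itgax was not lower, with means of 12.5 CPM in syngeneic KO and 11.9 CPM in syngeneic WT. The 4 gamma delta T cell genes were lower in sum as well, at 9.15 to 13.3 CPM in syngeneic KO and 17.95 to 20.5 CPM in syngeneic WT. Among them Trdc, the constant gene of the delta chain, averaged 6.13 CPM in syngeneic KO and 12.9 CPM in syngeneic WT. Its groups did not overlap, but it was not called (−1.07 ± 0.31, adjusted p = 0.0951). Sox13 of the same list was not lower, with means of 0.470 CPM in syngeneic KO and 0.382 CPM in syngeneic WT. The sums of these lists were lower where the receptors were higher, and the part of the lists in the result was not tested.

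After allogeneic transplantation, none of the 8 genes passed the test between KO and WT. Over all tested genes, edgeR called 0.0542% (10 genes; 0.0434% higher and 0.0108% lower), against 77 genes by DESeq2. An unadjusted p under 0.05 was reached by 771 of all tested genes and by 0 of the 8, and DESeq2 also called 0 of the 8. Pdcd1 came closest, with 428 ± 150.5 CPM in allogeneic KO and 312 ± 21.7 CPM in allogeneic WT (SD, n = 3 each), a log2 difference of 0.46 ± 0.21 with a 95% interval of −0.010 to 0.92 (edgeR adjusted p = 0.963). Its value rested on allogeneic KO replicate 2, without which it was 0.13. Havcr2 was the 1 gene whose groups did not overlap, where 3.29% of all tested genes were separated in this direction and 4.37% in the other, with a log2 difference of 0.36 ± 0.23 (interval −0.15 to 0.86, adjusted p = 0.963). Lag3 differed by 0.19 ± 0.11 (interval −0.050 to 0.43) and Cd160 by 0.33 ± 0.28 (interval −0.28 to 0.94), each at an adjusted p of 0.963. The intervals of the others were −0.39 to 0.25 for Tigit, −0.57 to 0.62 for Ctla4, −0.42 to 0.36 for Entpd1 and −0.39 to 0.10 for Btla.

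Whether KO and WT differed by the same amount in both settings was tested as an interaction, the allogeneic minus the syngeneic log2 difference. Lag3 passed, with an interaction of −1.41 ± 0.16 (interval −1.75 to −1.06, edgeR adjusted p = 0.00291), meaning a smaller log2 difference of KO from WT after allogeneic transplantation. Of all tested genes, 0.0488% were called in this direction, 0.428% in the other and 0.477% in either. This holds for ratios only. Lag3 averaged 220.3 CPM in allogeneic KO, 193 in allogeneic WT, 24.3 in syngeneic KO and 8.04 in syngeneic WT, so its difference in CPM was not smaller. Tigit had an interaction of −1.05 ± 0.21 at an adjusted p of 0.0541, just short of the threshold. With the replicate number as a block over all 12 libraries, Tigit passed (adjusted p = 0.0323). Replicate numbers were not taken to pair the allogeneic libraries, so this block does not match the design of the interaction. Havcr2 reached −1.40 ± 0.34 (adjusted p = 0.145) and Pdcd1 −0.97 ± 0.31 (adjusted p = 0.347). Without syngeneic KO replicate 3, Tigit and Havcr2 also passed, at adjusted p of 0.0169 and 0.0212, so that 3 genes were called. Entpd1 had −0.54 ± 0.26 (adjusted p = 0.831), and the intervals of Ctla4 (−0.85 to 0.85), Cd160 (−0.78 to 0.95) and Btla (−0.48 to 0.21) all spanned 0. The interaction and the comparisons above share libraries.

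**Figure D3:**
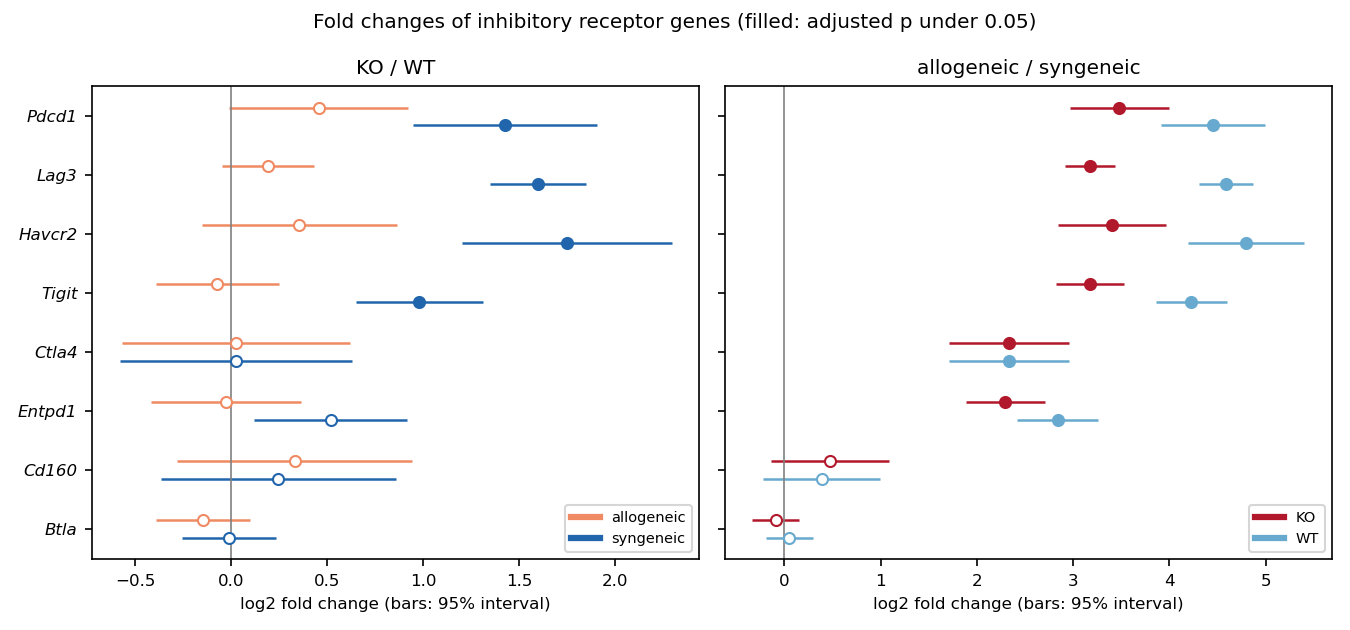
Log2 fold changes of the 8 genes with 95% intervals, KO over WT on the left (allogeneic and syngeneic) and allogeneic over syngeneic on the right (KO and WT), with filled points at an adjusted p under 0.05. In this fit without a replicate block, Lag3, Pdcd1, Havcr2 and Tigit are filled in syngeneic KO over WT. No gene is filled in allogeneic KO over WT, and 6 genes are filled on the right with either genotype.

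Within groups, the genes varied together in some libraries. Syngeneic KO replicate 1 was the highest of its group for Pdcd1, Lag3, Tigit, Ctla4, Cd160 and Entpd1, and replicate 3 was the lowest for these 6 genes and for Havcr2. Allogeneic KO replicate 2 was the highest of its group for Pdcd1, Havcr2, Tigit, Ctla4, Cd160, Btla and Entpd1. On the log2 scale it stood 0.53 above its group mean for Pdcd1, 0.67 for Cd160 and 0.38 for Ctla4, but 0.091 for Lag3. The summed CPM of the 8 genes was 1223 ± 270 in allogeneic KO, 1047 ± 29.6 in allogeneic WT, 224 ± 41.9 in syngeneic KO and 152 ± 2.06 in syngeneic WT (SD, n = 3 each). In this sum the KO libraries spread more widely than the WT libraries in both settings.

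Likeness of pattern was measured as the root mean square difference of log2 CPM, centred on each gene's own mean, over the 12 libraries, among 9256 named protein-coding genes with a mean of at least 5 CPM. The libraries share the 4 groups, so for genes that differed between groups likeness mostly reflects those differences. Cd160 and Btla had no called difference between groups. The root mean square deviation from the gene's own mean was 0.402 for Cd160 and 0.111 for Btla, against 2.05 for Pdcd1. A gene without any variation would lie that far from each, so small distances to Cd160 and Btla are not closer likeness. The nearest gene to Pdcd1 was Lag3 (0.207), followed by Gzmb, the gene of granzyme B (0.290), and Tigit (0.308). For Lag3 the nearest were Pdcd1, Tigit (0.286) and Havcr2 (0.287), for Havcr2 they were Lag3, Pdcd1 (0.318) and Gzmb (0.381), and for Tigit they were Lag3, Pdcd1 and St14 (0.333). Ctla4 was nearest to Pglyrp1 (0.262), Nfil3 (0.276) and Id2 (0.292), and Entpd1 to Bhlhe40 (0.190), Ptms (0.217) and Id2 (0.221). Ctla4 and Entpd1 were 0.326 apart. The nearest genes were Mrpl58 (0.079), Sf3b6 (0.087) and Tmem208 (0.096) for Cd160 and Tubgcp5 (0.083), Zfp146 (0.092) and Shprh (0.093) for Btla.

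The nearest tested protein-coding gene on each side of the 8 genes gave 16 neighbours. In syngeneic KO over WT, 1 of 16 was called higher and 0 lower, where 0.743% of all tested genes were called higher and 2.63% lower. The called neighbour was Ptms, the gene of parathymosin, which lies 1975 bases from Lag3 and rose by 0.76 ± 0.12 on the log2 scale (adjusted p = 0.00323). Cd4, 16139 bases from Lag3 on the other side, differed by 0.24 ± 0.23 (adjusted p = 0.650). The neighbours of Pdcd1, Havcr2 and Tigit passed no test in that comparison. Neu4, 9970 bases from Pdcd1 and with a mean of 0.164 CPM over the libraries, differed by 2.06 ± 0.95, with a 95% interval of 0.0045 to 4.12 and an adjusted p of 0.356. Zbtb20, 6264 bases from Tigit, differed by −0.49 ± 0.27 (adjusted p = 0.442) and Med7, 12213 bases from Havcr2, by −0.26 ± 0.22 (adjusted p = 0.615). With the replicate block in the fit of the syngeneic groups alone, Zbtb20 was called lower (−0.53 ± 0.12, adjusted p = 0.0216), Ptms was again called higher, and Neu4 was not tested. That fit called 382 genes higher and 905 lower. In allogeneic KO over WT, 0 of 16 were called, where 0.0542% of all tested genes were.

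Between allogeneic and syngeneic libraries, 5 of 16 neighbours rose and 2 fell in KO, and 7 rose and 2 fell in WT. Of all tested genes, 13.2% were called higher and 11.2% lower in KO, and 16.4% higher and 15.9% lower in WT. Ptms rose by 2.32 ± 0.12 in KO and 2.93 ± 0.13 in WT, and Icos, the costimulatory gene next to Ctla4, by 1.98 ± 0.11 in KO and 2.48 ± 0.11 in WT. Cd28, on the other side of Ctla4, rose by 0.88 ± 0.11 in KO and 0.78 ± 0.11 in WT. Cd200, next to Btla, rose by 1.09 ± 0.21 in KO and 1.57 ± 0.22 in WT, whereas Btla itself passed neither test. The neighbours of Tigit fell in both genotypes, Zbtb20 by 1.44 ± 0.28 in KO and 1.78 ± 0.28 in WT and Qtrt2, which modifies transfer RNA, by 1.24 ± 0.13 in KO and 1.17 ± 0.13 in WT. Each of these calls had an adjusted p under 0.05 by edgeR, the largest being 0.00264. Cd4 rose in WT by 1.08 ± 0.23 (adjusted p = 0.00362), and so did Neu4, by 3.42 ± 0.86 (adjusted p = 0.00863), whose value in KO was 1.49 ± 0.71 (adjusted p = 0.145). Rnf115, next to Cd160, rose by 0.46 ± 0.12 in KO (adjusted p = 0.0129) and 0.47 ± 0.12 in WT (adjusted p = 0.00858), the call in KO being lost with the compared groups alone or without syngeneic KO replicate 2 or 3 (0.0581 to 0.0639). Fam174a beside Pdcd1, Rack1 beside Havcr2, Gpr89 beside Cd160, Atg3 beside Btla and Tctn3 and Ccnj beside Entpd1 passed no test in any comparison, with log2 differences of −0.32 to 0.36.

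**Figure D4:**
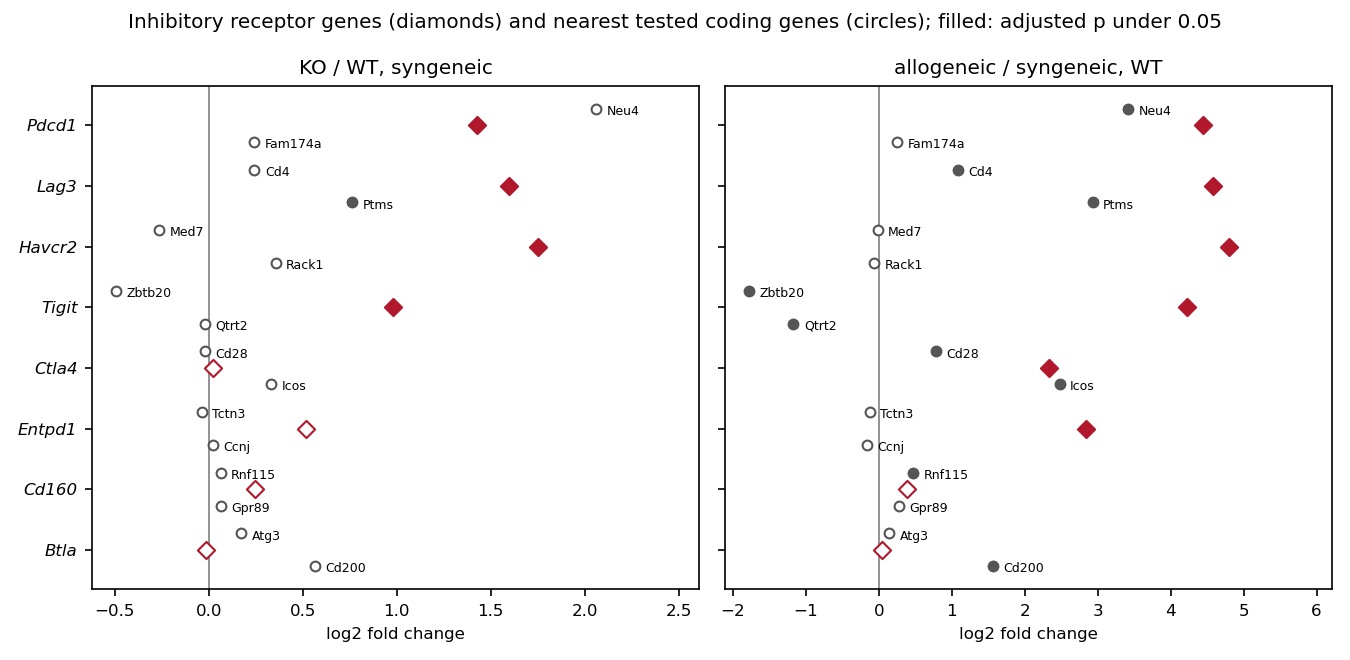
Log2 fold changes of the 8 genes (diamonds) and of the nearest tested protein-coding gene on each side (circles), for KO over WT after syngeneic transplantation on the left and allogeneic over syngeneic WT on the right, with filled symbols at an adjusted p under 0.05. Ptms beside Lag3 is the filled circle on the left, and on the right Zbtb20 and Qtrt2 lie below 0 beside Tigit at 4.23.

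The 5 lists of related genes were chosen with earlier results of these data known. Their counts stand beside the shares over all tested genes. In allogeneic over syngeneic libraries these were 13.2% higher and 11.2% lower in KO, and 16.4% higher and 15.9% lower in WT. In KO over WT they were 0.743% higher and 2.63% lower after syngeneic transplantation, and 0.0542% in either direction after allogeneic transplantation. These shares are of the fit without a block, with 137 genes higher and 485 lower in syngeneic KO. The replicate block in the syngeneic groups alone called 382 higher and 905 lower. List calls from that fit are not to be read against these shares. Among ligands and partners of the 8 proteins, 17 of 19 genes were tested. In allogeneic KO over syngeneic KO 9 rose and 1 fell, and in WT 6 rose and 2 fell. Lgals3, which encodes galectin-3, a ligand of LAG-3, averaged 613 CPM in allogeneic KO and 38.1 CPM in syngeneic KO (log2 fold change 4.01 ± 0.30, edgeR adjusted p = 1.66e-06), and rose by 4.63 ± 0.31 in WT (adjusted p = 5.06e-07). Cd80, a ligand of CTLA-4, rose by 2.96 ± 0.26 in KO and 3.39 ± 0.27 in WT, and Pdcd1lg2, the gene of PD-L2, by 1.49 ± 0.19 in KO and 2.38 ± 0.19 in WT. Adora2a, an adenosine receptor gene, rose by 0.88 ± 0.10 in KO and 1.11 ± 0.10 in WT. The median over the 17 was 0.80 in KO and 0.17 in WT. The largest adjusted p of Cd80, Pdcd1lg2 and Adora2a was 8.42e-05. Nt5e, which encodes CD73 and makes adenosine after CD39, was named after its values were seen and fell by 0.61 ± 0.14 with KO cells (adjusted p = 0.00555) and by 0.71 ± 0.14 with WT cells (adjusted p = 0.00150).

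In syngeneic KO over WT, 1 of the 17 ligands and partners rose and 3 fell. Pdcd1lg2 averaged 4.21 CPM in syngeneic KO and 2.42 CPM in syngeneic WT (log2 fold change 0.80 ± 0.19, adjusted p = 0.0349). Its call was lost when any of the 6 syngeneic libraries was left out (adjusted p of 0.0559 to 0.130) and with the replicate block over all 12 libraries (0.0560). Tnfrsf14, the gene of HVEM, averaged 25.2 CPM in syngeneic KO and 42.7 CPM in syngeneic WT (log2 fold change −0.76 ± 0.15, adjusted p = 0.0159), a call lost without syngeneic KO replicate 2 or 3 or syngeneic WT replicate 2 or 3 (0.0581 to 0.0919). The class II genes H2-Ab1 and H2-Aa, whose products LAG-3 binds, had log2 fold changes of −2.31 ± 0.49 (adjusted p = 0.0239) and −2.92 ± 0.61 (adjusted p = 0.0243). Both calls were lost without syngeneic KO replicate 2 or syngeneic WT replicate 2 or 3 (0.0844 to 0.114), that of H2-Aa also without syngeneic KO replicate 1 (0.0531) and that of H2-Ab1 without allogeneic KO replicate 3 (0.0513). With the compared groups alone all 4 calls were lost (0.0562 to 0.140), and those of H2-Ab1 (0.0638) and H2-Aa (0.0697) also with no filter on low counts. With the replicate block in the syngeneic groups alone all 4 held, and H2-Eb1, another class II gene, was called lower too (−2.82 ± 0.27, adjusted p = 3.36e-04). B cells and myeloid cells carry class II, and the myeloid genes given above were lower in syngeneic KO as well.

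Of 16 other inhibitory receptors, all tested, 7 rose and 1 fell in allogeneic KO over syngeneic KO, and 6 rose and 1 fell in WT, with medians of 0.45 in KO and 0.30 in WT on the log2 scale. Lilrb4 rose by 2.00 ± 0.22 in KO and 2.30 ± 0.22 in WT. Klrc1, which encodes the NKG2A receptor, rose by 3.05 ± 0.28 in KO and 2.38 ± 0.27 in WT, with means of 94.2 CPM in allogeneic KO, 74.5 in allogeneic WT, 11.3 in syngeneic KO and 14.3 in syngeneic WT. Cd200r1, the receptor of CD200, rose by 1.89 ± 0.21 in KO and 1.95 ± 0.21 in WT, and Klrg1 rose by 2.19 ± 0.28 in WT. The edgeR adjusted p of each was at or under 7.47e-05. Cd244, which encodes the 2B4 receptor, rose by 3.40 ± 0.37 in KO (adjusted p = 3.43e-05) and 2.37 ± 0.36 in WT (adjusted p = 3.03e-04). With the compared groups alone, 5 rose and 0 fell in KO. In syngeneic KO over WT, 0 of 16 rose and 1 fell, Ceacam1, a ligand of TIM-3 and itself an inhibitory receptor (log2 fold change −3.16 ± 0.75, adjusted p = 0.0397). That call was lost without syngeneic KO replicate 1 or 2, syngeneic WT replicate 2 or 3, allogeneic KO replicate 2 or any allogeneic WT library (adjusted p of 0.0580 to 0.161), with the compared groups alone (0.0633) and with no filter (0.0957). The replicate block in the syngeneic groups alone kept it and gave 1 call higher, Klrg1 (0.78 ± 0.18, adjusted p = 0.0241), and 4 lower, with Cd300a, Pilra and Clec12a beside Ceacam1. Klrc1, which passed no test there, averaged 11.3 CPM in syngeneic KO and 14.3 CPM in syngeneic WT.

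All 9 costimulatory genes were tested. In allogeneic over syngeneic libraries 5 rose in KO and 8 in WT, with medians of 0.84 in KO and 0.95 in WT, and in both comparisons of KO with WT 0 were called. With the replicate block in the syngeneic groups alone, Tnfrsf9 (0.91 ± 0.11, adjusted p = 8.60e-04) and Tnfrsf4 (0.79 ± 0.14, adjusted p = 0.00655) were called higher in syngeneic KO. The compared groups alone also gave 2 calls there, and DESeq2 gave 1. In allogeneic over syngeneic KO the count ran from 4 to 8 with 1 library left out, reaching 8 without syngeneic KO replicate 1 or allogeneic KO replicate 3, and was 8 by DESeq2. Beside Icos and Cd28, Tnfrsf9, which encodes 4-1BB, rose by 1.88 ± 0.25 in KO and 2.02 ± 0.25 in WT, and Tnfrsf4, which encodes OX40, by 2.14 ± 0.30 in WT. Cd226, whose product competes with TIGIT, rose by 1.08 ± 0.20 in KO (adjusted p = 0.00148). Of 16 genes of signalling and trafficking of these receptors, 4 rose in KO and 6 in WT, and 0 fell, with medians of 0.29 in KO and 0.37 in WT. These counts moved with the fit. The count in KO was 2 without syngeneic KO replicate 2 and with the compared groups alone, 9 without syngeneic KO replicate 1 and 7 by DESeq2. The count in WT was 3 without syngeneic WT replicate 2 or allogeneic WT replicate 1, and 10 without allogeneic KO replicate 2 and with the compared groups alone. In both comparisons of KO with WT 0 of these 16 were called. Ptpn11, the gene of SHP-2, the phosphatase that PD-1 recruits, rose by 1.26 ± 0.11 in KO and 1.45 ± 0.11 in WT (the larger adjusted p = 3.15e-06). Adam17, a protease that can shed LAG-3, rose by 0.39 ± 0.094 in KO and 0.45 ± 0.094 in WT, the call in KO being lost with the compared groups alone (adjusted p = 0.0601). Inpp5d, which encodes the phosphatase SHIP-1, rose in WT by 0.52 ± 0.11 (adjusted p = 0.00303). Ap2m1, a subunit gene of the endocytic adaptor AP-2, rose in WT by 0.52 ± 0.14 (adjusted p = 0.0121), a call lost without syngeneic WT replicate 2 or allogeneic WT replicate 1 (0.0540 and 0.0516). In KO, Adam10, another sheddase gene, rose by 0.46 ± 0.12 (adjusted p = 0.0126), a call lost without syngeneic KO replicate 2 (0.0613). Rab11a, of recycling endosomes, rose in KO by 0.59 ± 0.19 (adjusted p = 0.0385), a call lost with the compared groups alone and without syngeneic KO replicate 2 or 3, syngeneic WT replicate 3 or allogeneic KO replicate 1 or 2 (0.0532 to 0.134).

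Of 16 transcription factors known to regulate inhibitory receptor genes, 3 rose and 0 fell in syngeneic KO over WT, with a median of 0.22. In allogeneic KO over WT 0 were called by edgeR and 1 by DESeq2. Prdm1, which encodes BLIMP-1, averaged 19.4 CPM in syngeneic KO and 9.49 CPM in syngeneic WT (log2 fold change 1.03 ± 0.17, edgeR adjusted p = 0.00536). Irf4, induced by T cell receptor signals, rose by 0.76 ± 0.12 (adjusted p = 0.00299). Tox, a factor of exhausted T cells, rose by 0.56 ± 0.12 (adjusted p = 0.0169), a call lost without syngeneic KO replicate 1 (0.0719) or syngeneic WT replicate 2 (0.0599) or 3 (0.108), and with the compared groups alone (0.0602). With the replicate block in these groups alone 5 factors were called higher, Batf (0.75 ± 0.13, adjusted p = 0.00563) and Maf (0.54 ± 0.13, adjusted p = 0.0350) beside these. Between allogeneic and syngeneic libraries, 10 factors rose and 3 fell with either genotype, with medians of 0.60 in KO and 1.12 in WT. Maf rose by 1.69 ± 0.16 in KO and 2.95 ± 0.17 in WT, Prdm1 by 1.87 ± 0.18 in KO and 2.82 ± 0.18 in WT, Tox2, a relative of Tox, by 1.85 ± 0.22 in KO and 2.30 ± 0.22 in WT, and Tox by 1.14 ± 0.12 in KO and 1.25 ± 0.12 in WT. Tcf7, which encodes TCF-1 of naive and memory T cells, fell in KO by 2.09 ± 0.22 (adjusted p = 2.18e-05), with means of 177 CPM in allogeneic KO and 756 CPM in syngeneic KO. In the interaction Maf was called lower (−1.26 ± 0.22, adjusted p = 0.0316), with means of 97.2 CPM in allogeneic KO, 157 in allogeneic WT, 30.1 in syngeneic KO and 20.2 in syngeneic WT. That call was lost without syngeneic KO replicate 1 or 2, syngeneic WT replicate 3, allogeneic KO replicate 2 or allogeneic WT replicate 1 or 2 (adjusted p of 0.0618 to 0.105).

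Markers of the cells that the sort could hold were set beside these results. Cd8a, Cd8b1 and Runx3, of the CD8 lineage, summed to 1138 to 1386 CPM in allogeneic KO, 942 to 1083 in allogeneic WT, 1152 to 1786 in syngeneic KO and 995 to 1421 in syngeneic WT. The CD4 lineage genes Cd4, Zbtb7b and Cd40lg summed to 344 to 577 CPM in allogeneic KO, 557 to 631 in allogeneic WT, 245 to 358 in syngeneic KO and 235 to 320 in syngeneic WT, so that allogeneic WT stood above both syngeneic groups. Of 5 genes of regulatory T cells, which carry CTLA-4, TIGIT and CD39, Foxp3 averaged 22.7 CPM in allogeneic KO, 23.9 in allogeneic WT, 30.7 in syngeneic KO and 24.2 in syngeneic WT. The list summed to 203 to 360 CPM in allogeneic KO, 268 to 287 in allogeneic WT, 162 to 190 in syngeneic KO and 127 to 166 in syngeneic WT. Of it Il2ra, also a gene of activated T cells, took 167 CPM in allogeneic KO, 171 in allogeneic WT, 46.1 in syngeneic KO and 37.4 in syngeneic WT. The 6 NK and NKT genes summed to 28.7 to 67.4 CPM in allogeneic KO, 32.9 to 36.3 in allogeneic WT, 12.3 to 17.3 in syngeneic KO and 12.5 to 18.6 in syngeneic WT, mostly Klrb1c in the allogeneic groups, with Klra8 under 1 CPM in every group. The 6 B cell genes summed to 11.1 to 24.1 CPM over all 12 libraries. The gamma delta T cell genes summed to 13.3 to 17.4 CPM in allogeneic KO and 10.4 to 15.9 CPM in allogeneic WT, beside the syngeneic sums given above. In allogeneic over syngeneic libraries Trdc fell, by 1.09 ± 0.31 in KO and 2.28 ± 0.32 in WT, and Tcrg-C2 rose, by 1.95 ± 0.35 in KO and 1.09 ± 0.34 in WT (adjusted p of 0.0261 or less). Myeloid genes summed to 142 to 315 CPM in allogeneic KO and 202 to 271 CPM in allogeneic WT, of which Itgax, also known in activated CD8 T cells, averaged 187 CPM in allogeneic KO and 177 CPM in allogeneic WT, while C1qa, C1qb, Cd14, Adgre1 and Siglech were under 1 CPM in both. The part of the CD8 lineage, CD4 lineage, regulatory T, gamma delta T, NK, B, myeloid and erythroid lists in the results was not tested.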

How the data were processed

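RNA was sequenced from ribosome-depleted libraries made from 100 ng of total RNA. The authors' deposited table holds estimated counts per gene, expected counts that need not be whole, of which 94.5 to 95.0% were whole numbers. Per the submitters' processing notes, TopHat2 2.0.13, Bowtie2 2.2.1, Cufflinks and Cuffdiff 2.2.1 were used with GRCm38. The counts were rounded here. 6 further columns of per-sample values were not used, and naive T cells were not analysed here. Genes were filtered with filterByExpr (minimum count 10), normalised by TMM and fitted over all 12 libraries as 4 group means in edgeR 4.0.16 with limma 3.58.1 under R 4.3.3 (quasi-likelihood test, Benjamini-Hochberg adjustment, 8 residual degrees of freedom). The steps were tested on simulated data. Figures were drawn with matplotlib 3.10.9.

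The labels call the triplicates independent. They do not say that equal replicate numbers pair samples. Over genes, the deviations of same-numbered syngeneic KO and WT libraries correlated at 0.545, 0.170 and 0.335, and these numbers were taken to pair the samples. Those of allogeneic KO and WT correlated at 0.0098, −0.14 and 0.18 and were not. Different-numbered syngeneic KO and WT libraries correlated at −0.501 to 0.363. The highest of these values, of syngeneic KO replicate 3 with syngeneic WT replicate 2, lay above the same-numbered 0.170 and 0.335. The pairing of the syngeneic libraries was therefore an assumption that these correlations do not settle.

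Positions are from GENCODE M21 (GRCm38), which held 45139 of the 46073 identifiers. The genes, lists and tests were chosen with earlier results of these data known. Named from each pathway list were up to 4 called genes with the smallest p per comparison, beside the nearest tested gene on each side and the 3 genes of most similar pattern. Genes called only with the replicate block, and genes of the cell type lists, were named after their values were seen. Alternatives were DESeq2 1.42.0, its RLE size factors in edgeR, no filter, no ribosomal RNA genes, the compared groups alone (not for the interaction), a replicate block, for syngeneic KO over WT also in these groups alone, and each library left out. Intervals are at 95%.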

Additional observations from a re-analysis of the deposited data

Results flagged for a closer look

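For Lag3, the log2 difference of KO from WT changed between the settings, by a test of that change itself. The log2 difference of KO from WT was 0.19 ± 0.11 after allogeneic and 1.60 ± 0.12 after syngeneic transplantation, so that the allogeneic minus the syngeneic difference was −1.41 (SE 0.16, edgeR adjusted p = 0.00291, 8 residual degrees of freedom). Leaving out each of the 12 libraries in turn gave −1.47 to −1.31, with adjusted p of 0.00171 to 0.0195. Lag3 was higher in 3 of 3 syngeneic KO libraries than in every syngeneic WT library. Donor sex, recipient strain of the syngeneic KO libraries and erythroid, myeloid and gamma delta T cell genes, given above, go with the same groups, and their part was not tested.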

How the results depend on the processing

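The calls of Lag3, Pdcd1 and Tigit in syngeneic KO over WT, of 6 genes in each allogeneic over syngeneic comparison, and of the Lag3 interaction held under the alternatives run for each comparison and with each library left out. The compared groups alone were not fitted for the interaction, and the replicate block in the compared groups alone was fitted for syngeneic KO over WT only. Havcr2 in syngeneic KO over WT was the exception, lost with the replicate block in the compared groups alone (1.69, adjusted p = 0.113). Genes called in syngeneic KO over WT numbered 622, against 349 with the compared groups alone, 1287 with the replicate block in these, 1018 by DESeq2 and 260 to 742 with 1 library left out (260 without syngeneic WT replicate 2). Those in allogeneic KO over WT numbered 10, against 6 with the compared groups alone, 77 by DESeq2 (30 higher, 47 lower, against 8 higher and 2 lower) and 3 to 15 with 1 library left out. In allogeneic over syngeneic KO the compared groups alone gave 2669 against 4500. The interaction had 88 calls, 293 by DESeq2 and 28 to 242 with 1 library left out. Of the 8 genes, 1 was called in it, against 2 with the replicate block, RLE factors, no filter or no ribosomal RNA genes, 3 by DESeq2 and 1 to 3 with 1 library left out. Apart from Havcr2 and the Tigit interaction, given above, the replicate block changed no call of the 8 genes. It moved counts of the lists of related genes in syngeneic KO over WT, as given with each list.

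Signs turned only for differences that passed no test. Ctla4 in syngeneic KO over WT was −0.026 with the compared groups alone, −0.060 with the replicate block in these, −0.0025 by DESeq2, −0.0023 with RLE factors, −0.026 without ribosomal RNA genes and −0.36 to 0.29 with 1 library left out. In allogeneic KO over WT it was −0.0020 with the replicate block and −0.20 to 0.17 with 1 left out, and its interaction was −0.0095 with the block, −0.016 with no filter and −0.26 to 0.37. With 1 library left out, syngeneic KO over WT ran from −0.097 to 0.44 for Cd160 and −0.080 to 0.048 for Btla. Allogeneic KO over WT ran from −0.18 to 0.030 for Tigit, −0.10 to 0.53 for Cd160 and −0.16 to 0.099 for Entpd1. Btla in allogeneic over syngeneic WT ran from −0.032 to 0.12, and the Cd160 interaction from −0.31 to 0.42. The cause of these changes was not tested. With 3 libraries a group, the intervals given with each value set what could be detected.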
